A study of Mus musculus with 6 samples.

Results

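The macrophages with Trem2, Fcrls or Gpnmb transcripts made up 473 of the 76774 deposited cell barcodes, and 473 of the 1526 macrophages that passed the same gate. They were chosen by measured counts of unique molecular identifiers (UMIs, each standing for 1 captured transcript molecule). A member had at least 1000 UMIs and at most 50% mitochondrial UMIs. It also had UMIs of at least 4 of the macrophage genes C1qa, C1qb, C1qc, Adgre1, Ms4a7 and Csf1r, none of Cd3e, Cd79a, Pecam1 and Slc12a1, at most 0.2% of its UMIs from Lrp2, Slc34a1, Slc5a12 and Slc22a6, and at least 2 UMIs of Trem2, Fcrls and Gpnmb together. The levels of these genes in the members are therefore a description and were not tested. Macrophages of the same gate with 0 UMIs of Trem2, Fcrls and Gpnmb (739 cells) served as the comparison and are called lacking macrophages here.

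The cells came from kidneys of male C57BL/6 mice obtained at an age of 8 to 10 weeks, before surgery and treatment, 3 sham mice and 3 DOCA-salt mice, with 1 single cell library per mouse. DOCA-salt mice had the left kidney removed and then received a 50 mg pellet of deoxycorticosterone acetate under the skin and drank 1% NaCl over 21 days, a model of mineralocorticoid hypertension. Sham mice had sham surgery, no pellet and normal water, so loss of a kidney and DOCA-salt cannot be told apart. The libraries held 11058 to 14449 barcodes and 93172739 to 137819127 UMIs, and 699 barcode sequences occurred in more than 1 library. Of the members, 9 had a barcode also found in another library, and 0 were members in both.

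TREM2 is a lipid-sensing receptor on macrophages and microglia that signals through the adaptor TYROBP, Fcrls is an Fc receptor-like gene known as a marker of microglia, and GPNMB is a glycoprotein of lysosomes and the cell surface. Macrophages with TREM2 gather where tissue holds dying cells and lipid, in atherosclerotic plaques, fat, fibrotic liver and injured kidney, and typically raise genes of lipid transport and of the lysosome. Resident macrophages of many tissues, in contrast, are known for scavenger receptors such as MRC1 and STAB1 and for the secreted factors PF4 and SELENOP.

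In GRCm39, the build of the count files, the GENCODE annotation places Trem2 at chr17:48653429-48661175 on the plus strand, Fcrls at chr3:87156616-87181827 on the minus strand (listed there under the same identifier as Fcrl2), and Gpnmb at chr6:49013426-49047863 on the plus strand. The 250 bases before the starts of Trem2 and Fcrls, the genes that marked nearly all members, and of Ctsd, the lysosome gene with the lowest p between members and lacking macrophages, are shown from the RefSeq promoter table (GRCm38.p6), 5′ to 3′ on the strand of the gene. Capitals mark GAGGAA, the core bound by the macrophage factor PU.1, or its complement in Trem2 and Fcrls, and the E-box core CACGTG in Ctsd, searched on both strands.
Trem2, chr17:48346151-48346400, plus strand: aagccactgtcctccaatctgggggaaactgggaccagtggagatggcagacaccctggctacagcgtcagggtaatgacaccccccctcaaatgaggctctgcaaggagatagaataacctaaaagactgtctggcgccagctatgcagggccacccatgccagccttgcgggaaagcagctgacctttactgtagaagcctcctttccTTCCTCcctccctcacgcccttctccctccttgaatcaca
Fcrls, chr3:87263525-87263774, minus strand: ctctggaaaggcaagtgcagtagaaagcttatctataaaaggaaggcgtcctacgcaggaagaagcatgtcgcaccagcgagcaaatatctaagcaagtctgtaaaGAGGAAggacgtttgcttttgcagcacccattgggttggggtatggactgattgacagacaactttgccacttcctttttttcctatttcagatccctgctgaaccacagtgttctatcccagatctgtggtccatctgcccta
Ctsd, chr7:142387828-142388077, minus strand: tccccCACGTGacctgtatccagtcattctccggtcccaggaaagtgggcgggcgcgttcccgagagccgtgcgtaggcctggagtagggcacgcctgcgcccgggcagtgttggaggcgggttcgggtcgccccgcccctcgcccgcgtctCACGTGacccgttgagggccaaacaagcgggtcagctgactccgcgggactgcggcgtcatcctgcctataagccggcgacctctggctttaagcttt
GAGGAA stood in 1 place in the Trem2 window and 1 in the Fcrls window, and in neither the Gpnmb nor the Ctsd window. It was found in 23.3% of the 32851 promoters of the table. CACGTG stood in 2 places in the Ctsd window and was found in 6.02% of all promoters. Of the 28 lysosome and cathepsin genes 22 were matched, and 7 of these, Ctsd included, had CACGTG in a promoter. So did 1 of 13 matched lipid handling genes and 0 of 17 matched resident and perivascular macrophage genes. GAGGAA was found for 10, 4 and 9 matched genes of these 3 lists. A gene counted if any of its promoters held the letters, so these counts are not on the scale of the shares over all promoters. These matches are a description of the letters, not of binding.

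Members were few in sham kidneys and frequent in DOCA-salt kidneys. The sham mice held 9, 2 and 4 members among 109, 101 and 95 macrophages of the gate, and the DOCA-salt mice held 123, 193 and 142 among 329, 434 and 458. As a share of macrophages this was 8.26% (95% exact binomial interval 3.85 to 15.1), 1.98% (0.241 to 6.97) and 4.21% (1.16 to 10.4) in sham mice against 37.4% (32.1 to 42.9), 44.5% (39.7 to 49.3) and 31.0% (26.8 to 35.5) in DOCA-salt mice, with means of 4.82% ± 3.18 and 37.6% ± 6.74 (SD, n = 3 each). The groups did not overlap. No test is given, because the rule counts transcripts of these genes, and the intervals cover counting error only. Fcrls was also known to rise in these macrophages when the rule was made. The numbers and shares of members are therefore a description and not an independent result. Members were also 1.41% to 2.12% of all barcodes kept in DOCA-salt mice and 0.0278% to 0.101% in sham mice.

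**Figure D1:**
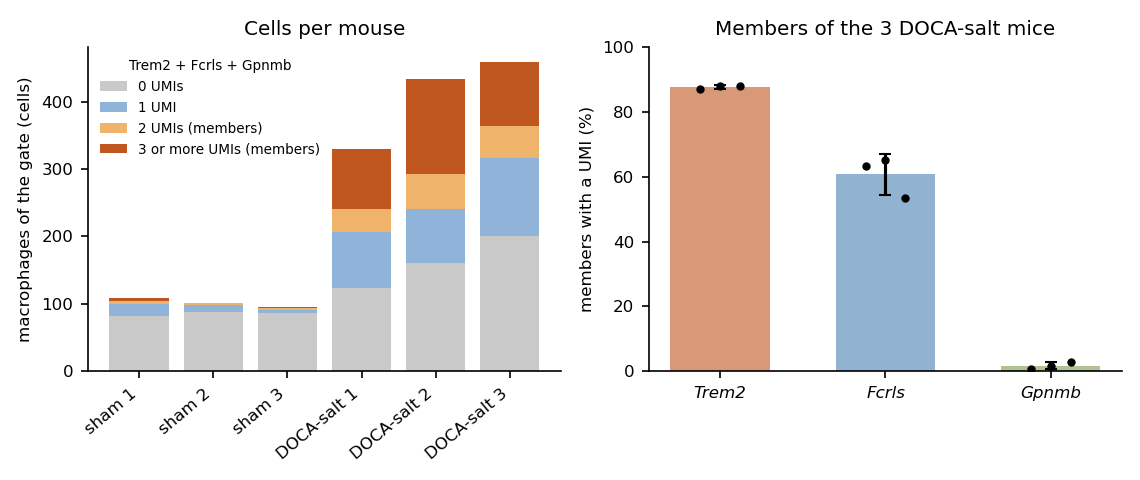
Left, macrophages of the gate in each mouse (cells), divided by their summed UMIs of Trem2, Fcrls and Gpnmb; right, percent of the members of each DOCA-salt mouse with a UMI of each gene (points), with the mean (bars) and SD (error bars, n = 3). The 3 DOCA-salt mice hold 123 to 193 members and the sham mice 2 to 9, and Gpnmb marks under 3% of the members of each DOCA-salt mouse.

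The threshold divided neighbours by a single transcript. Just outside it, with exactly 1 UMI of the 3 genes, were 18, 11 and 5 macrophages in sham mice and 83, 81 and 116 in DOCA-salt mice, and just inside, with exactly 2, were 4, 2 and 3 and 35, 52 and 48. Depth bears on this rule. Members of DOCA-salt mice had median depths of 5350, 6681 and 6427 UMIs against 3945, 5083.5 and 4422 in lacking macrophages of the same mice. When every macrophage was thinned to 1000 UMIs, the expected share of members fell to 4.17% to 7.36% in DOCA-salt mice and 0.156% to 0.957% in sham mice, still without overlap. A further 304 barcodes with at least 2 UMIs of the 3 genes failed the gate, 86 of them with fewer than 4 macrophage genes, 189 with at least 4 and a UMI of an excluded gene, and 29 over the tubule limit alone.

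Trem2 carried the definition. It was detected in 87.0%, 88.1% and 88.0% of the members of DOCA-salt mice 1, 2 and 3 and in every one of the 15 sham members. Fcrls was detected in 63.4%, 65.3% and 53.5% of DOCA-salt members and in 3 sham members. Most Fcrls members also held Trem2. Both genes were detected in 62, 103 and 59 DOCA-salt members, Fcrls without Trem2 in 16, 23 and 17, and Trem2 as the only one of the 3 genes in 45, 67 and 64.

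Gpnmb, in contrast, hardly marked these cells, and the label holds for Trem2 and Fcrls but not for Gpnmb. It was detected in 0.813%, 1.55% and 2.82% of DOCA-salt members, and 3 cells held 87.7% of all Gpnmb UMIs of the DOCA-salt members. Of the few sham members, 1 of 9 in mouse 1, 1 of 2 in mouse 2 and 0 of 4 in mouse 3 had a Gpnmb UMI, with 1 UMI each. Of the 500 Gpnmb UMIs in kept barcodes of DOCA-salt mice, 29.2% lay in members and 70.2% outside the macrophage gate. The corresponding shares in members were 52.6% of 2782 Trem2 UMIs and 57.0% of 1315 Fcrls UMIs. Proximal tubule barcodes of the DOCA-salt mice were taken as a background. They had a UMI of Trem2 in 0.716%, of Fcrls in 0.302% and of Gpnmb in 0.339% of cells. Their median depth was 9973 UMIs, against 5350 to 6681 in members. Whether tubule cells made any of these transcripts themselves was not tested. These barcodes were picked with no UMI of the macrophage genes of the rule. Barcodes with stray macrophage transcripts were thus partly left out beforehand, and the shares may be too low as a background.

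The question of how DOCA-salt treatment changed the members could be tested only weakly, because sham kidneys held so few of them. UMIs were summed per mouse and compared by edgeR's quasi-likelihood test, with p-values adjusted over all genes by the Benjamini-Hochberg method. Levels are given as CPM, the UMIs of a gene per 1000000 UMIs of the sum. Only sham mouse 1 had the 5 members required for a sum, so 1 sum of 9 cells and 42486 UMIs stood against 3 DOCA-salt sums, and the spread was estimated from the DOCA-salt mice alone, with sham 1 assumed to vary like them. Such a test sets 1 sham mouse against the DOCA-salt mice and does not measure how sham mice vary. Ctsd, the lysosomal protease cathepsin D, was at 70.6 CPM (3 UMIs) in sham 1 and at 1103, 1099 and 1172 CPM in DOCA-salt mice 1, 2 and 3, and was the one gene that passed (log2 change 4.27 ± 0.51 SE, edgeR adjusted p = 0.00684). The ratio of the DOCA-salt mean to sham 1 was 15.9, with a 95% interval of 5.45 to 77.2 that covers the counting error of the 3 UMIs only. With all 6 mice and no minimum of cells, Ctsd did not pass (log2 change 1.58 ± 0.45, adjusted p = 0.0790, and 1.82 ± 0.58, adjusted p = 0.377, with the mouse number as a block). The test called 1 of 8945 genes higher (0.0112%) and 0 lower, with 770 at an unadjusted p below 0.05 (8.61%), and DESeq2 called 10 higher and 4 lower. In simulated sums of this design, whose changed genes had 20 CPM or more, 13.4% of tested genes with a true log2 change of 2 were recovered.

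Lowering the threshold to 1 UMI of the 3 genes brought in all 6 mice, with 27, 13 and 9 cells in sham and 206, 274 and 258 in DOCA-salt mice. This wider set includes the members, which made up more of it in DOCA-salt than in sham mice. Of 6923 genes, 13 rose (0.188%) and 14 fell (0.202%) with DOCA-salt by the edgeR test at an adjusted p below 0.05. Sham 1 had the lowest Ctsd level of the sham mice here. The rises included Ctsd (120, 416 and 276 CPM in sham, 824, 937 and 806 in DOCA-salt, log2 change 1.81 ± 0.31, adjusted p = 0.00128) and Abca1, the cholesterol exporter (31.9, 117 and 75.2 against 267, 254 and 304 CPM, log2 change 2.09 ± 0.37, adjusted p = 0.00168). Neither gene overlapped between the groups. Spp1, which encodes the secreted phosphoprotein osteopontin, was at 55.8, 216 and 175 CPM in sham and 583, 795 and 1381 in DOCA-salt mice (log2 change 2.84 ± 0.39, adjusted p = 4.43e-05). In the members of DOCA-salt mice 1, 2 and 3, 5 cells held 24.7%, 68.1% and 45.1% of the Spp1 UMIs. It was detected in at least 86.0% of the members of each mouse and in 72.5% to 97.0% of the lacking macrophages of the same mice. Mmp12, the macrophage elastase, rose by a log2 change of 2.38 ± 0.51 (adjusted p = 0.0168), from 47.8 to 150 CPM in sham mice to 167 to 611 CPM in DOCA-salt mice. Of the Mmp12 UMIs of the DOCA-salt members, 68.1% to 76.3% were in 5 cells per mouse.

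The calcium-binding S100a4 and S100a6 and the annexin Anxa1 also rose in this wider set. S100a4 had 1, 0 and 0 UMIs in the sham sums and 158, 321 and 170 in the DOCA-salt sums, and Anxa1 had 2, 0 and 0 against 84, 243 and 136. Fn1, which encodes fibronectin, had 0 UMIs in every sham sum and 152, 131 and 278 in DOCA-salt sums. It was detected in 5.69% to 9.86% of the DOCA-salt members, with 68.7% to 98.4% of its UMIs in 5 cells per mouse. The sums held 125521, 60074 and 39915 UMIs in sham mice and 1189174, 1971000 and 1708793 in DOCA-salt mice. Sgk1, a kinase known as a mineralocorticoid and glucocorticoid target, went from 55.8, 83.2 and 75.2 CPM to 207, 197 and 196 CPM (log2 change 1.55 ± 0.35, adjusted p = 0.0255, and adjusted p = 0.0692 with the mouse number as a block). Mgp, a matrix protein of stromal cells, was also called higher, with 0 UMIs in sham sums and 435, 209 and 1930 in DOCA-salt sums, and the part of stromal transcripts in these rises was not tested.

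Among the falls in the wider set were 3 of 27 tested chemokine and cytokine genes (Ccl5, Ccl4 and Tnf) and 1 of 11 genes of MHC class II presentation (H2-Oa), with 0 of either list higher, while 0 of 19 inflammasome genes passed. Ccl5, a T-cell chemokine, fell from 366, 699 and 526 CPM to 95.9, 136 and 151 CPM (log2 change -1.98 ± 0.25, adjusted p = 1.46e-05). Mmp13, the collagenase 3 gene, fell from 733, 283 and 326 CPM to 52.1, 67.0 and 117 CPM (log2 change -2.68 ± 0.31, adjusted p = 2.98e-06). Tnf (813, 566 and 651 against 256, 270 and 380 CPM) and Ccl4 (13053 to 20042 against 5630 to 6864 CPM) had log2 changes of -1.21 and -1.43, and the lectin gene Mgl2 had one of -1.58 (adjusted p = 0.00855, 0.0199 and 0.00128). Ccl4 did not pass with the mouse number as a block (adjusted p = 0.167). The class II and class I related genes H2-Oa and H2-M2 had log2 changes of -3.13 and -3.65, but rested on few UMIs. H2-Oa had 4, 1 and 2 UMIs in the sham sums and 3, 7 and 7 in the DOCA-salt sums. H2-M2 had 5, 8 and 3 against 3, 6 and 19. The tubule genes Klk1, Inmt and Ttc36 were among the 14 lower genes, Ttc36 with overlap between the groups. Of the tubule marker lists, 1 of 14 proximal genes (Ttc36) and 1 of 7 genes of other segments (Klk1) passed as lower and 0 as higher. The median log2 changes of these lists were -0.79 and 0.089. The part of tubule transcripts in the other changes was not tested.

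Within the same mice, members differed from lacking macrophages in many genes. This comparison used 4 mice with at least 5 cells of each kind (DOCA-salt 1, 2 and 3 and sham 1), with the mouse as a block. Without the genes of the rule, 243 genes were higher in members (3.16% of 7678) and 319 were lower (4.15%), 562 in all (7.32%). Since members were deeper and some lacking macrophages held epithelial transcripts, the comparison was repeated in cells of 2000 to 8000 UMIs (58 higher, 0.985%, and 38 lower, 0.645%), without cells holding a UMI of Epcam, Krt7, Krt8, Krt18, Cdh1, Mecom, Clec9a, Xcr1 or Flt3 (96 higher, 1.67%, and 90 lower, 1.56%) and in DOCA-salt mice only (308 higher, 3.74%, and 392 lower, 4.76%). In all 4 sets of cells, 35 genes were higher and 18 lower, and they were picked out after their values were seen. Without the mouse as a block 69 genes were higher and 141 lower, and many of the genes described below did not pass. They included Apoe (adjusted p = 0.0552), Mertk (0.0611), Mitf (0.0663), Cebpb (0.0872), Mki67 (0.0933), Spp1 (0.588) and Ccl4 (0.698), and likewise Ctsb, Grn, Cd63, Pltp, Fabp4, Clec10a, Gas6, Ccl2, Ccl3, Fcgr4, Entpd1, Ftl1, Itgax, Ifit2 and Ifit3.

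**Figure D2:**
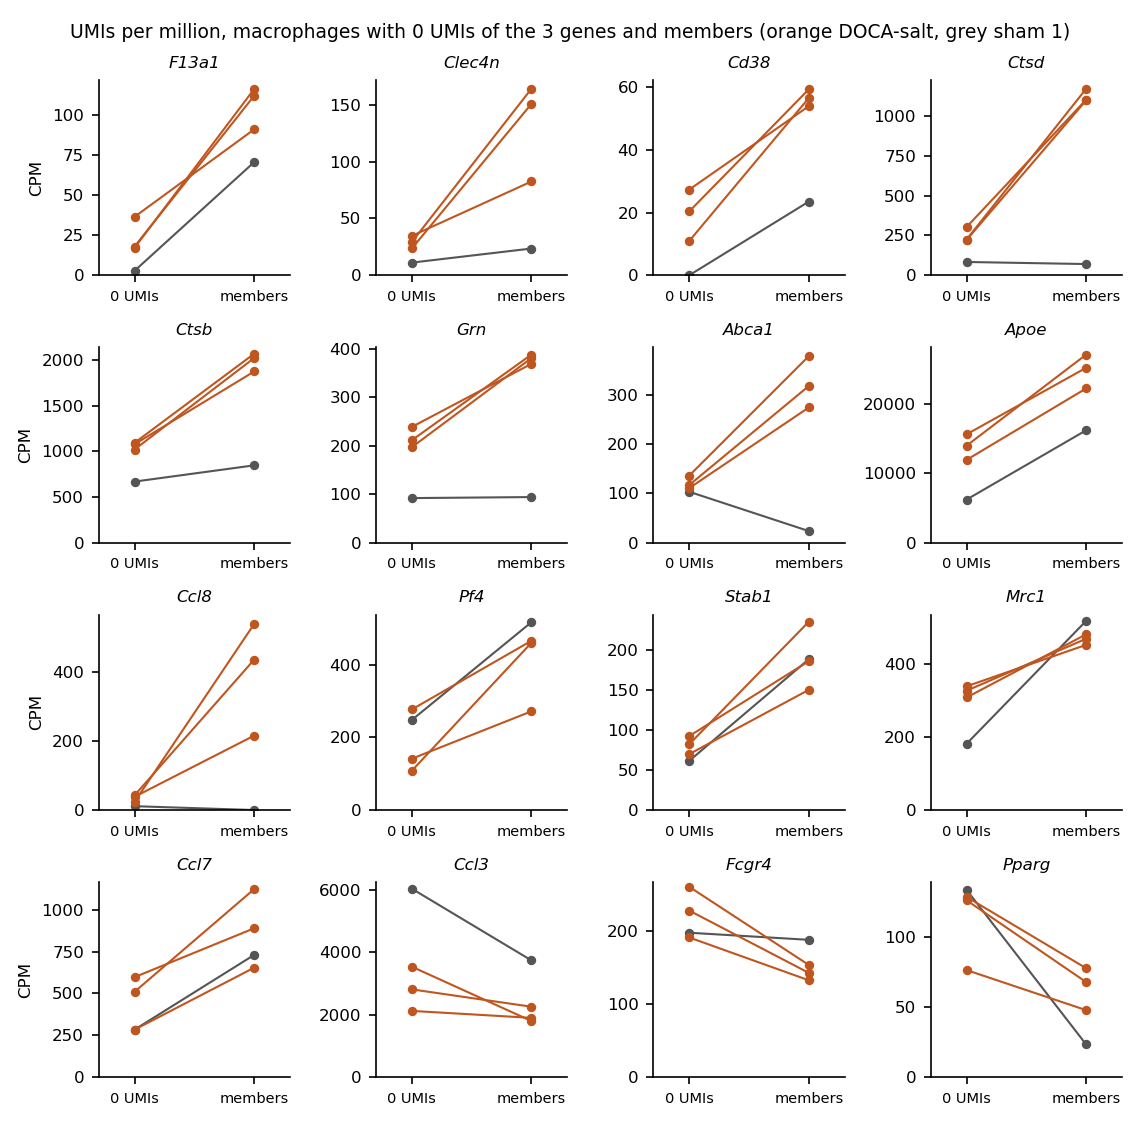
Levels (CPM, linear axes) of 16 genes in lacking macrophages (0 UMIs of the 3 genes) and in members of the same mouse, with 1 line per mouse (orange, DOCA-salt; grey, sham 1, whose members are 9 cells). F13a1, Clec4n, Cd38, Ctsb, Apoe, Pf4, Stab1, Mrc1 and Ccl7 are higher in the members of all 4 mice, and Ccl3, Fcgr4 and Pparg lower.

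Of 26 tested genes of the lysosome and cathepsin list, 13 were higher in members, 0 were lower and the rest did not pass, with a median log2 change of 0.47 over the list against -0.02 over all genes tested. The corresponding counts were 7 of 24 in cells of 2000 to 8000 UMIs and 8 of 24 without cells with epithelial or dendritic cell UMIs. Without the mouse as a block 2 of 26, Ctsd and Pld3, were higher, and by DESeq2 7 of 26. Ctsd was at 303, 222 and 225 CPM in lacking macrophages of DOCA-salt mice 1, 2 and 3 and at 1103, 1099 and 1172 CPM in their members, while in sham 1 it was at 83.7 and 70.6 CPM (log2 change 2.10 ± 0.15, adjusted p = 4.52e-21). The rise was seen in the 3 DOCA-salt mice and not in the 3 UMIs of sham 1, and the difference between the treatments did not pass (difference of log2 changes 2.81 ± 0.71, adjusted p = 0.294). Ctsd was detected in 80.3% to 85.4% of DOCA-salt members, yet 5 cells of each mouse held 40.2% to 49.9% of its UMIs. Ctsb, another cathepsin protease, went from 1078, 1094 and 1021 to 1876, 2070 and 2023 CPM in DOCA-salt mice and from 669 to 847 CPM in sham 1 (log2 change 0.81 ± 0.12). Grn, which encodes the lysosomal regulator progranulin, and Cd63, a tetraspanin of late endosomes, were higher by 0.81 ± 0.14 and 0.59 ± 0.13 on the log2 scale and passed in all 4 sets of cells. Cd63 did not pass by DESeq2 (adjusted p = 0.0964) or without DOCA-salt mouse 2 (0.43 ± 0.18, adjusted p = 0.223).

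Of 19 tested genes for lipid handling, 11 were higher and 1, Fabp4, was lower, with a median log2 change of 0.66. In cells of 2000 to 8000 UMIs 3 of 17 were higher and 1 was lower, there Cd36. Without cells with epithelial or dendritic cell UMIs 6 of 19 were higher. Both by DESeq2 and without the block, 4 of 19 were higher and 0 lower. Apoe, the apolipoprotein that carries cholesterol out of macrophages, was at 11927 to 15611 CPM in lacking macrophages and 22225 to 27099 CPM in members of DOCA-salt mice, and at 6206 and 16194 CPM in sham 1 (log2 change 0.95 ± 0.10, adjusted p = 4.35e-12). Abca1 went from 117, 111 and 136 CPM to 318, 274 and 378 CPM in DOCA-salt mice (log2 change 1.31 ± 0.16), whereas sham 1 had 103.2 CPM in lacking macrophages and 1 UMI in its members. Abca1 had an adjusted p of 0.0554 by DESeq2. The phospholipid transfer gene Pltp was higher by 0.85 ± 0.17 on the log2 scale but did not pass without DOCA-salt mouse 3 (0.61 ± 0.20, adjusted p = 0.0787).

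Fabp5, a fatty acid binding protein, had the largest change of the list but rested on few cells. It was at 27.4, 13.96 and 11.3 CPM in lacking macrophages of the DOCA-salt mice and 215, 390 and 776 CPM in their members (log2 change 4.38 ± 0.27, adjusted p = 1.54e-25), with 0 UMIs in sham 1 members. Between 13.4% and 19.7% of DOCA-salt members had a Fabp5 UMI, and 5 cells of each mouse held 86.6% to 96.0% of its UMIs. Fabp5 did not pass by DESeq2 (adjusted p = 0.236), and in cells of 2000 to 8000 UMIs its counts were too low to be tested.

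Members also carried more transcripts of resident and perivascular macrophage genes. Of 11 tested genes of that list, 8 were higher and 0 lower (Ccl8, F13a1, Stab1, Pf4, Clec10a, Selenop, Mrc1 and Gas6), with a median log2 change of 0.74, and the same count of 8 of 11 was found in cells of 2000 to 8000 UMIs. Without cells with epithelial or dendritic cell UMIs, without the mouse as a block or by DESeq2 it was 6 of 11. F13a1, the coagulation factor XIII A chain, was at 36.5, 17.2 and 17.9 CPM in lacking macrophages and 91.1, 116 and 112 CPM in members of DOCA-salt mice, and at 2.79 and 70.6 CPM (1 and 3 UMIs) in sham 1 (log2 change 2.37 ± 0.24, adjusted p = 1.36e-13). It was detected in 14.8% to 19.2% of DOCA-salt members, and 5 cells of each mouse held 42.3% to 70.5% of its UMIs. Pf4, a platelet-factor chemokine, went from 277, 108 and 142 to 467, 461 and 272 CPM in DOCA-salt mice and from 248 to 518 CPM in sham 1 (log2 change 1.22 ± 0.15). Mrc1, the mannose receptor, went from 327, 308 and 339 to 469, 481 and 452 CPM and from 181 to 518 CPM in sham 1 (log2 change 0.63 ± 0.14), and the scavenger receptor gene Stab1 was higher by 1.23 ± 0.17. Every one of the 4 mice showed these 4 rises.

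Chemokine genes moved in both directions. Of 27 tested chemokine and cytokine genes, 11 were higher and 4 lower, against 5 and 2 of 25 in cells of 2000 to 8000 UMIs. The counts were 5 and 0 of 27 without the mouse as a block and 7 and 0 by DESeq2. Ccl8, a monocyte chemoattractant, was at 38.3, 23.6 and 42.5 CPM in lacking macrophages and 215, 539 and 435 CPM in members of DOCA-salt mice (log2 change 3.51 ± 0.21, adjusted p = 2.51e-26), and sham 1 members had 0 UMIs. The 0 of sham 1 did not hold for sham members in general. With all 6 mice and no minimum of cells, edgeR called Ccl8 lower in DOCA-salt than in sham members, which were few. Ccl8 was detected in 20.3% to 37.8% of DOCA-salt members, and 5 cells of each mouse held 42.0% to 76.0% of its UMIs. Ccl7 (285, 510 and 597 against 654, 1122 and 888 CPM, log2 change 1.01 ± 0.13) and Ccl2 (0.64 ± 0.13) were also higher. Ccl3 and Ccl4, the macrophage inflammatory proteins, were lower by 0.55 ± 0.12 and 0.43 ± 0.11 on the log2 scale, and all 4 of these genes passed in all 4 sets of cells. Ccl4 did not pass by DESeq2 (adjusted p = 0.304), without DOCA-salt mouse 1 (-0.25 ± 0.10, adjusted p = 0.158) or without mouse 2 (adjusted p = 0.141). Nor did Ccl3 by DESeq2 (adjusted p = 0.103) and Ccl2 without mouse 2 (0.47 ± 0.18, adjusted p = 0.159). Ccr1, the receptor of Ccl3 among others, was higher (log2 change 2.08 ± 0.33), as was the IL-6 family cytokine gene Osm (1.54 ± 0.27), although Osm did not pass in cells of 2000 to 8000 UMIs (0.74 ± 0.33, adjusted p = 0.406). Il10 was called higher with 11.3% to 11.9% of DOCA-salt members having a UMI.

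**Figure D3:**
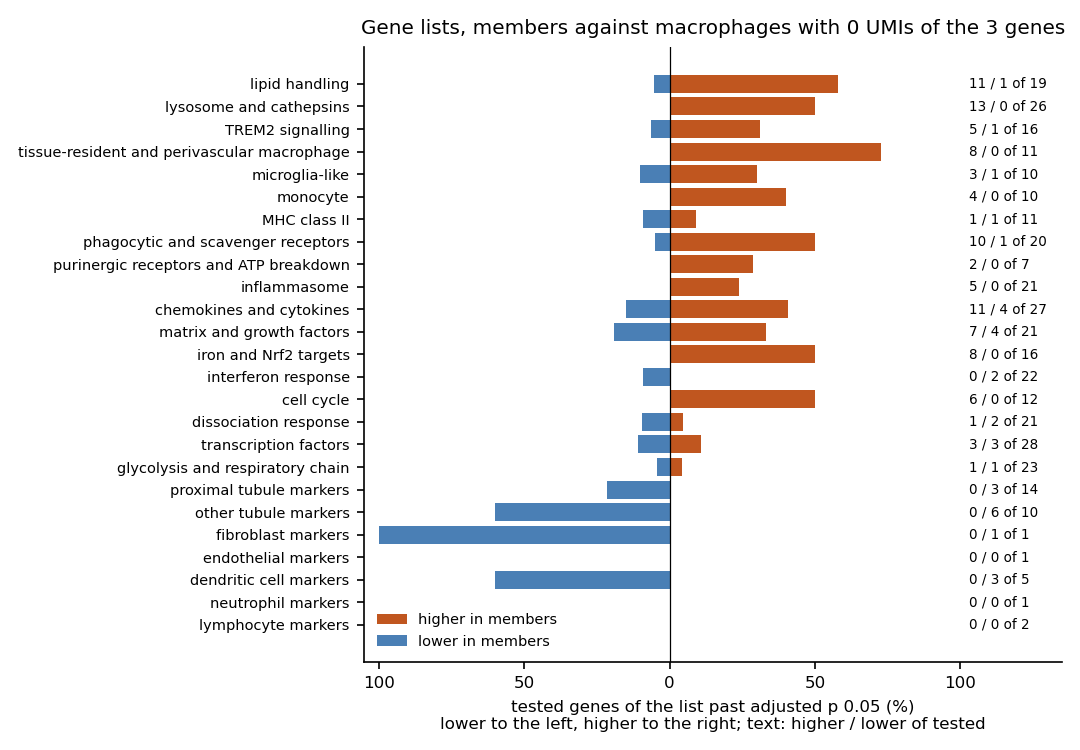
Percent of the tested genes of each list that passed an edgeR adjusted p of 0.05, higher (right, orange) or lower (left, blue) in members than in lacking macrophages of the same mouse (4 mice, mouse as a block), with the counts at the right. Resident macrophage (8 of 11), lipid handling (11 of 19), lysosome (13 of 26) and phagocytic receptor (10 of 20) genes passed as higher, and 3 of 14 proximal and 6 of 10 other tubule markers as lower.

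Of 20 tested phagocytic and scavenger receptor genes, 10 were higher and 1 lower. In cells of 2000 to 8000 UMIs 5 of 19 were higher and 2, Fcgr4 and Cd36, were lower. Without cells with epithelial or dendritic cell UMIs 4 of 19 were higher and 1 was lower. Without the mouse as a block, as by DESeq2, 3 of 20 were higher, namely Clec4n, Stab1 and Mrc1. Clec4n, which encodes the fungal lectin receptor dectin-2, was at 34.7, 23.6 and 29.3 CPM in lacking macrophages and 82.5, 151 and 164 CPM in members of DOCA-salt mice (log2 change 2.26 ± 0.21, adjusted p = 7.31e-15). Mertk, a receptor for apoptotic cells, was higher by 0.76 ± 0.17 but did not pass without cells with epithelial or dendritic cell UMIs (0.49 ± 0.19, adjusted p = 0.152) or without DOCA-salt mouse 1 (0.54 ± 0.19, adjusted p = 0.0744). The 1 lower gene over all cells was Fcgr4, an activating Fc receptor. It was at 192, 261 and 228 CPM in lacking macrophages and 133, 154 and 143 CPM in members of DOCA-salt mice (log2 change -0.61 ± 0.15, adjusted p = 0.00239). It did not pass without DOCA-salt mouse 2 (adjusted p = 0.147) or mouse 3 (adjusted p = 0.0525). Cd38, an ectoenzyme that consumes NAD, was higher in every mouse (10.9, 20.4 and 27.4 against 56.6, 59.4 and 54.0 CPM in DOCA-salt mice, log2 change 1.53 ± 0.27), and so was the monocyte and macrophage lysozyme gene Lyz2 (1.04 ± 0.12).

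Of 16 tested iron and Nrf2 targets, 8 were higher and 0 lower, against 2 of 14 in cells of 2000 to 8000 UMIs (Blvrb and Ftl1) and 3 of 15 without cells with epithelial or dendritic cell UMIs. The count was 2 of 16 without the mouse as a block and 3 by DESeq2. Blvrb, biliverdin reductase B of heme breakdown, went from 82.1, 126 and 100.02 CPM to 228, 245 and 185 CPM in DOCA-salt mice (log2 change 1.07 ± 0.16), and Ftl1, the ferritin light chain, was higher by 0.71 ± 0.11. Slc7a11, the cystine transporter, was higher by 2.59 ± 0.30 but was detected in 9.33% to 14.1% of DOCA-salt members. Its counts were too low to be tested in cells of 2000 to 8000 UMIs or without cells with epithelial or dendritic cell UMIs. Igf1, insulin-like growth factor 1, was higher by 1.34 ± 0.18 in members (128, 117 and 97.2 against 185, 355 and 403 CPM in DOCA-salt mice, and 114 against 23.5 CPM, 1 UMI, in sham 1). Igf1 did not pass by DESeq2 (0.78 ± 0.74). Of 12 tested cell cycle genes 6 were higher and 0 lower, among them the proliferation marker Mki67 (log2 change 1.20 ± 0.30, adjusted p = 0.00289), for which 7.75% to 8.13% of DOCA-salt members had a UMI. Without DOCA-salt mouse 1 Mki67 did not pass (0.72 ± 0.38, adjusted p = 0.399). In cells of 2000 to 8000 UMIs, 0 of 6 tested cell cycle genes passed, and without the mouse as a block or by DESeq2 0 of 12.

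Of 11 tested genes of MHC class II presentation, 1 was higher and 1 lower, and of 22 interferon response genes 0 were higher and 2, Ifit3 and Ifit2, lower, against 0 of 21 in cells of 2000 to 8000 UMIs. Without cells with epithelial or dendritic cell UMIs these counts were 3 lower of 10 (H2-Ab1, Cd74 and H2-Eb1) and 5 lower of 21, beside 1.56% lower over all genes of that comparison. Of 23 genes of glycolysis and the respiratory chain, 1 was higher and 1 lower. Of 28 tested transcription factor genes, 3 were higher and 3 lower, with a median log2 change of 0.014. Among them, Cebpb (log2 change 0.74 ± 0.14) and the lysosomal regulator gene Mitf (0.63 ± 0.15) were higher but did not pass in cells of 2000 to 8000 UMIs (0.49 ± 0.15, adjusted p = 0.0805, and 0.39 ± 0.16, adjusted p = 0.296). Pparg, a nuclear receptor of lipid metabolism, was lower (76.6, 129 and 126 against 48.0, 77.9 and 68.0 CPM in DOCA-salt mice, log2 change -0.79 ± 0.18, adjusted p = 8.00e-04). Nr3c2, the mineralocorticoid receptor gene, was lower by 1.37 ± 0.27, but was at 0.20 in cells of 2000 to 8000 UMIs and did not pass there. Of the remaining lists, 5 of 16 genes of TREM2 signalling were higher and Spp1 lower (log2 change -0.61, and 0.48 without cells with epithelial or dendritic cell UMIs), 3 of 10 microglia-like genes were higher and 1 lower, and 4 of 10 monocyte genes were higher. In cells of 2000 to 8000 UMIs these counts were 1 higher (Ms4a6d) and 1 lower (Itgax) of 16, 1 and 1 of 9, and 1 higher of 9. Without the mouse as a block 1 of 16, 2 of 10 and 1 of 10 were higher, and by DESeq2 1 in each. Spp1 was not called lower by DESeq2 or in DOCA-salt mice only. It passed as higher without cells with epithelial or dendritic cell UMIs. In DOCA-salt mouse 3, 5 lacking macrophages held 84.8% of the 6187 Spp1 UMIs of that class, with 2781 in 1 cell. Of 21 matrix and growth factor genes, 7 were higher and 4 lower (1 and 1 of 15 in cells of 2000 to 8000 UMIs, 2 and 2 of 21 without the mouse as a block, and 1 and 2 of 21 by DESeq2), and of 21 genes of the response to tissue dissociation, 1 was higher and 2 lower.

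**Figure D4:**
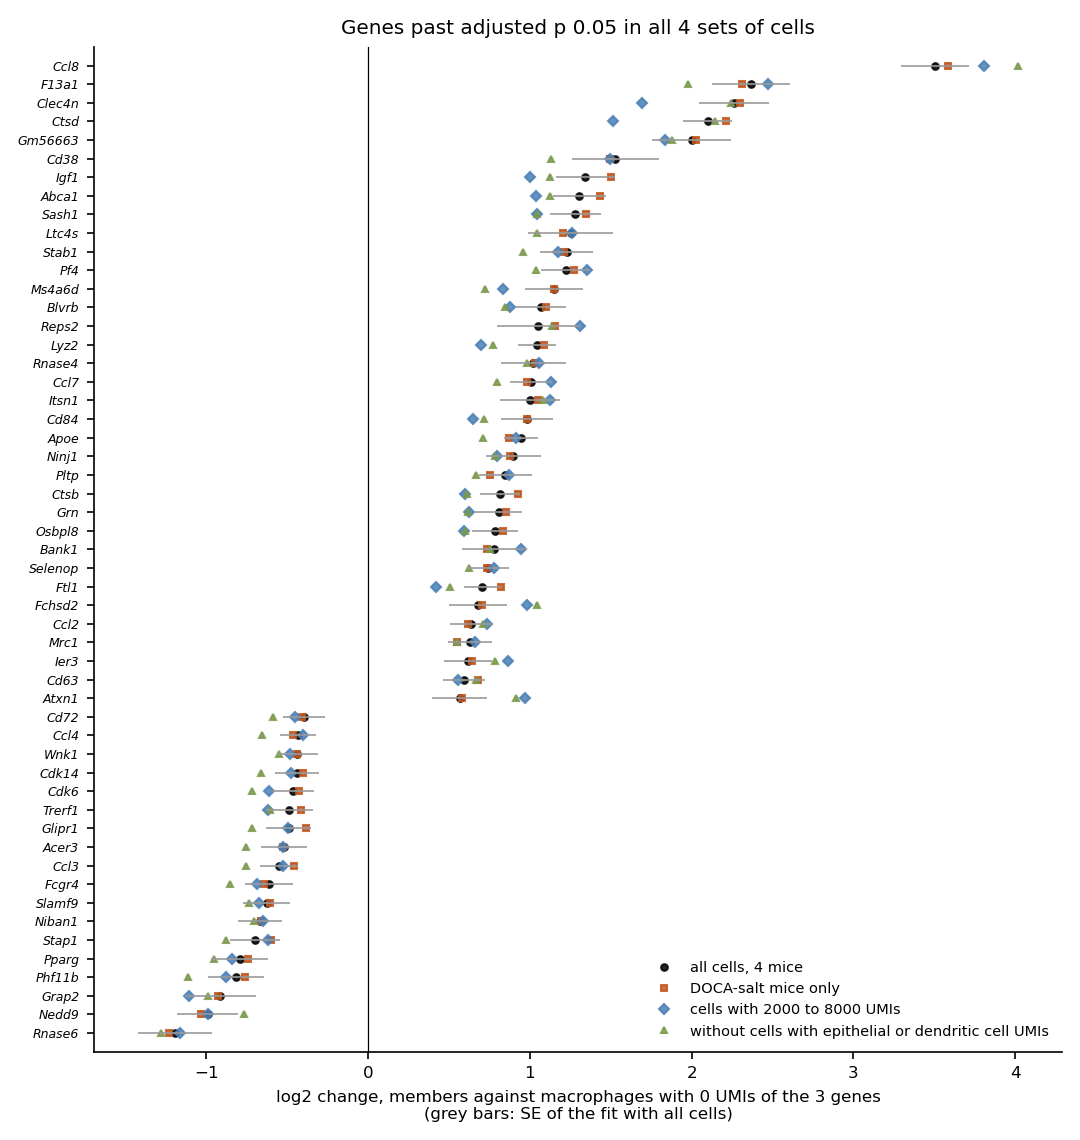
Log2 change of each of the 53 genes that passed an adjusted p of 0.05 in all 4 sets of cells, members against lacking macrophages, with 1 symbol per set of cells and grey bars for the SE of the comparison of all cells. The 35 higher genes are led by Ccl8, F13a1, Clec4n and Ctsd, and the 18 lower genes by Rnase6, Nedd9 and Grap2.

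The genes of the P2X7 and NLRP3 pathway, in which extracellular ATP opens the receptor P2RX7 and the NLRP3 inflammasome matures interleukin 1 beta, were the subject of the study. Of 21 tested inflammasome genes 5 were higher and 0 lower (1 and 1 of 20 in cells of 2000 to 8000 UMIs), and of 7 purinergic receptor and ATP breakdown genes 2, Cd38 and Entpd1, were higher. Nlrp3 was at 150, 147 and 200 CPM in lacking macrophages and 255, 257 and 322 CPM in members of DOCA-salt mice, and at 176 and 400.1 CPM in sham 1 (log2 change 0.80 ± 0.14, adjusted p = 1.43e-05, and 0.47 ± 0.15 with adjusted p = 0.108 in cells of 2000 to 8000 UMIs). P2rx7 (36.5, 40.8 and 60.4 against 77.6, 73.5 and 52.0 CPM in DOCA-salt mice, log2 change 0.53 ± 0.22, adjusted p = 0.152) and P2rx4 (0.38 ± 0.17, adjusted p = 0.225) did not pass. P2rx7 passed without DOCA-salt mouse 3 (0.89 ± 0.27, adjusted p = 0.0425). P2ry6, Casp1 and Gsdmd had log2 changes of 0.05 ± 0.16, 0.11 ± 0.25 and 0.42 ± 0.28 and did not pass. Il1b was at 1281, 1064 and 738 CPM in lacking macrophages and 571, 781 and 875 CPM in members of DOCA-salt mice and at 1623 and 1859 CPM in sham 1 (log2 change -0.34 ± 0.13, adjusted p = 0.132). It passed as lower in cells of 2000 to 8000 UMIs (-0.62 ± 0.14, adjusted p = 0.00663) and without cells with epithelial or dendritic cell UMIs (-0.55 ± 0.13, adjusted p = 0.00212). Ninj1, which mediates rupture of the plasma membrane in lytic death, was higher in all 4 sets of cells (0.90 ± 0.17), and Il1a was higher by 1.42 ± 0.21 over all cells but at -1.11 in cells of 2000 to 8000 UMIs.

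Between sham and DOCA-salt members, the same genes were compared as the share of cells with a UMI after thinning each cell to 1000 UMIs, by an exact two-sided permutation test over the 3 and 3 mice, which cannot give a p below 0.1. P2rx7 was expected in 4.66%, 0% and 0% of sham members and in 8.48%, 7.81% and 5.44% of DOCA-salt members (exact p = 0.1, adjusted over 7 genes 0.233). P2rx4 was expected in 4.66%, 0% and 6.16% against 11.0%, 12.9% and 10.1% (exact p = 0.1, adjusted 0.233). Il1b went the other way, with 56.1%, 38.4% and 74.0% of sham members against 23.7%, 27.5% and 33.8% of DOCA-salt members (exact p = 0.1, adjusted 0.233). A sham value of 0% rests on 2 to 4 cells. Sham mice had 82 to 88 lacking macrophages each. In these P2rx7 overlapped, at 3.72%, 0.842% and 3.58% of sham against 3.40%, 4.02% and 6.97% of DOCA-salt cells. Il1b was expected in 54.6%, 60.8% and 60.4% of sham against 42.6%, 40.8% and 33.4% of DOCA-salt cells. P2rx4 was expected in 6.54%, 5.90% and 4.25% against 9.61%, 9.25% and 9.84%. Neither of the latter genes overlapped between the groups. Nlrp3 (18.4% ± 12.7 against 20.1% ± 2.84), P2ry6 (11.6% ± 3.60 against 14.3% ± 0.556), Casp1 (4.36% ± 3.79 against 3.86% ± 0.355) and Gsdmd (5.88% ± 6.36 against 2.84% ± 0.531) overlapped between the groups (SD, n = 3 mice each). In proximal tubule barcodes thinned alike, P2rx7 was expected in 0.0274% to 0.130%, Il1b in 0.0976% to 0.473% and P2rx4 in 2.71% to 2.91% of cells. These barcodes, too, were picked with no UMI of the macrophage genes of the rule, so the P2rx7 and Il1b shares may be too low as a background. The paper describes P2rx4 as present in almost all clusters. Its share here may therefore include transcripts of the tubule cells themselves, which was not tested. Before thinning, P2rx7 was detected in 11.1%, 0% and 0% of sham members and in 36.6%, 39.9% and 26.8% of DOCA-salt members, and Il1b in 77.8%, 50.0% and 75.0% against 47.2%, 49.7% and 57.0%.

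The genes with the largest falls in members included epithelial ones. Among the 12 largest were Grip1, Plet1, Epcam, Mecom, Cldn8 and Krt8, of which Epcam, Cldn8 and Krt8 are genes of epithelial junctions and cytoskeleton. Epcam was at 102, 61.2 and 116 CPM in lacking macrophages of DOCA-salt mice and 7.39, 9.58 and 14.01 CPM in members (log2 change -3.04 ± 0.27). Of the epithelial UMIs (Epcam, Krt7, Krt8, Krt18, Cdh1 and Mecom) of lacking macrophages in DOCA-salt mice, 79.2% to 86.3% lay in 5 cells per mouse, whereas the shares of cells with such a UMI were 29.5% to 33.1% in lacking macrophages and 22.8% to 40.1% in members. A further 6.504% to 11.3% of lacking macrophages and 1.63% to 4.23% of members of DOCA-salt mice had a UMI of the dendritic cell genes Clec9a, Xcr1 or Flt3. The summed level of 13 markers of other tubule segments was 577, 574 and 948 CPM in lacking macrophages and 206, 261 and 263 CPM in members of DOCA-salt mice, and that of 14 proximal tubule markers was 4826, 3544 and 4486 against 2695, 4373 and 3482 CPM. When cells with a UMI of the epithelial or dendritic cell genes were left out, which left fewer cells, 57 of the 176 lower genes still tested and 86 of the 212 higher genes still tested were called again. Of the 176 and 212 genes, 158 and 212 kept their sign. The part of these cells in the result was not tested further.

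Variation among the members was examined along Fcrls. A planned comparison of members with Gpnmb and no Fcrls against those with Fcrls and no Gpnmb could not be made, since the DOCA-salt mice held 0, 0 and 2 cells of the first kind. In its place, members with a Fcrls UMI (78, 126 and 76 cells in DOCA-salt mice 1, 2 and 3) were compared with members without (45, 67 and 66 cells), with the mouse as a block, an addition made after the data were seen. By the rule, members without Fcrls passed by Trem2 or Gpnmb UMIs alone, whereas 16, 23 and 17 of those with Fcrls had no Trem2 UMI. The split therefore also follows Trem2, and the part of each gene was not tested. Without the genes of the rule, 0 of 6026 genes passed in either direction by edgeR (0%), with 465 at an unadjusted p below 0.05 (7.72%), and DESeq2 called 3. The lowest p belonged to Ccl7, at 361, 443 and 613 CPM without and 866, 1505 and 1070 CPM with Fcrls (log2 change 1.29 ± 0.18, edgeR adjusted p = 0.0793). The next genes had edgeR adjusted p-values of 0.149, among them Mrc1 (240, 260 and 339 against 634, 605 and 527 CPM), Pf4 (185, 237 and 206 against 670, 587 and 316 CPM) and Ccl8 (0, 145 and 184 against 371, 760 and 602 CPM). Of the 11 tested resident and perivascular macrophage genes, 10 had a positive value, with a median log2 change of 1.09 against -0.0041 over all genes. On the other side stood Anxa1 (138, 248 and 141 CPM without, 48.8, 85.9 and 86.4 with Fcrls, log2 change -1.24 ± 0.22, adjusted p = 0.149) and Il1b (821, 1033 and 1031 against 390, 638 and 773 CPM, log2 change -0.71 ± 0.14, adjusted p = 0.193). Without DOCA-salt mouse 3, 312 genes passed, without mouse 1, 20 passed, and without mouse 2, 0 passed. Each of these fits held only 4 sums of 2 mice, with the mouse as a block, so its spread rested on very few values.

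**Figure D5:**
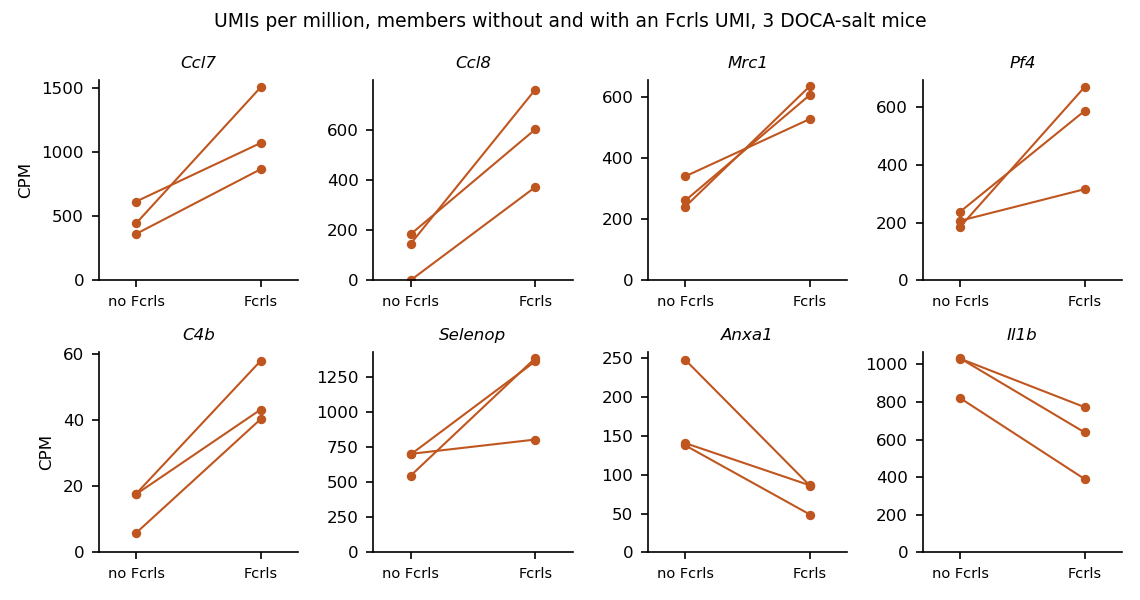
Levels (CPM, linear axes) of 8 genes in members without and with a Fcrls UMI, 1 line for each of the 3 DOCA-salt mice. The genes were taken from those of lowest p. Ccl7, Ccl8, Mrc1, Pf4, C4b and Selenop lie higher with Fcrls and Anxa1 and Il1b lower, and no gene passed an adjusted p of 0.05.

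Whether DOCA-salt changed members otherwise than lacking macrophages was examined as a difference of the changes, with sham 1 as the only sham mouse, so that its 9 members set the values of the sham arm. Of 10066 genes, 3 had a more positive change in members (0.0298%) and 0 a more negative one, with 784 at an unadjusted p below 0.05 (7.79%). The chemokine Cxcl2 was at 3414 CPM in lacking macrophages and 1789 CPM in members of sham 1 and at 2045 to 3346 and 3400 to 3953 CPM in DOCA-salt mice (difference of log2 changes 1.89 ± 0.33, adjusted p = 0.0371). Man1a, a mannosidase of the Golgi, was at 812 and 212 CPM in sham 1 and at 466 to 542 and 561.3 to 623 CPM in DOCA-salt mice (2.56 ± 0.40, adjusted p = 0.0140). Mmp12 was at 466 CPM in lacking macrophages and 0 UMIs in the 9 members of sham 1, and at 182, 286 and 200.1 against 228, 765 and 354 CPM in DOCA-salt mice (adjusted p = 0.00970), with 68.1% to 76.3% of the UMIs of members in 5 cells per mouse. In macrophages with at least 1 UMI of the 3 genes, which gave sums of all 6 mice, Mmp12 kept its difference (3.60 ± 0.45, adjusted p = 4.56e-04), and Cxcl2 and Man1a did not pass. Mmp12 was detected in 9.84% to 18.3% of the members and 10.0% to 13.8% of the lacking macrophages of each DOCA-salt mouse. In these lacking macrophages, 59.4% to 88.0% of its UMIs were in 5 cells per mouse. In cells of 2000 to 8000 UMIs, Mmp12 passed as lower in members than in lacking macrophages. In the fit with sham 1 alone, Mmp12 did not pass by DESeq2 or with library sizes alone as the scaling.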

How the data were processed

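Cells of whole kidneys of 3 sham and 3 DOCA-salt mice were processed by the authors into filtered matrices of UMI counts per gene and barcode, deposited as raw counts on the GRCm39 build (Cell Ranger 9.0.0 in the methods, 8.0.1 per the file headers). The annotation release was not given in the sources used here, and gene positions were taken from the GENCODE annotation provided. Members were selected from these counts, and UMIs were summed per mouse and class where at least 5 cells were present, since cells of 1 mouse are not replicates. Sums were compared with edgeR 4.0.16 in R 4.3.3 (filterByExpr, TMM, quasi-likelihood test, Benjamini-Hochberg adjustment, threshold 0.05), with the mouse as a block between classes of the same mice. The SE of a log2 change was derived from its F statistic. DESeq2 1.42.0, limma 3.58.1, scipy 1.17.1 and scanpy 1.11.5 served the alternatives, thinning and permutation tests.

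Each mouse gave 1 library. The edgeR p-values rest on the spread between the sums of the mice, with information shared over genes. With the mouse as a block, this is the spread of the differences within mice. Where sham 1 was the only sham mouse, the spread of sham mice was not measured. Doublets were not removed, and leaving out cells with high Scrublet scores was an alternative. Thinning gave the expected share of cells with a UMI among 1000 UMIs drawn from each cell. Mouse numbers did not pair sham and DOCA-salt mice (correlations of same-numbered deviations -0.028, -0.104 and -0.025). The comparison of members with Gpnmb and members with Fcrls had too few cells, and members with and without Fcrls were compared in its place. Genes were named by a rule: the genes of the selection, the 8 largest rises and falls among called genes whose sums averaged 20 CPM or more and did not overlap (or, within mice, moved 1 way in every mouse), up to 4 genes of lowest p per list, and the 7 genes of the P2X7 and NLRP3 pathway. Other named genes were chosen after their values were seen. Members and lists were chosen with earlier results of these data known. The procedure was tested on simulated data: of genes with a true log2 change of 1, it recovered 1% between treatments (8895 genes tested) and 87% between members and lacking macrophages (7825 genes tested). The changed genes had 20 CPM or more, all genes of a comparison had the same spread, and no differences between mice were simulated. The shares recovered can therefore differ in the real data.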

Additional observations from a re-analysis of the deposited data

Results flagged for a closer look

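For 3 genes the difference between the DOCA-salt changes of members and of lacking macrophages passed the test, in a fit whose sham arm was sham mouse 1 alone, with 9 members. A difference between the treatments in general is not shown by this fit. For Cxcl2 the difference of log2 changes was 1.89 ± 0.33 (edgeR adjusted p = 0.0371), and for Man1a it was 2.56 ± 0.40 (adjusted p = 0.0140). For Mmp12 the fitted value was 12.5, which depends on the prior count because the 9 members of sham 1 held 0 UMIs of Mmp12, and is not a size of change. With all 6 mice and at least 1 UMI of the rule genes, Cxcl2 was at 0.71 (adjusted p = 0.692), Man1a at 0.54 (adjusted p = 0.725) and Mmp12 at 3.60 ± 0.45 (adjusted p = 4.56e-04). With library sizes alone as the scaling, none of the 3 genes passed (Cxcl2 adjusted p = 0.168, Man1a and Mmp12 0.104), and by DESeq2 Cxcl2 passed (adjusted p = 0.00582) while Man1a and Mmp12 did not (0.245 and 0.591).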

How the results depend on the processing

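Counts of called genes depended on the processing, and the cause was not tested. Between treatments, 1 gene passed in the members, against 14 by DESeq2, 49 with no filter on low counts, 17 with at least 3 UMIs of the rule genes, 27 with at least 1, 29 in cells of 2000 to 8000 UMIs and 28 with all 6 mice and no minimum of cells. With the replicate number as a block the last count was 6, and that with at least 1 UMI was 25. Leaving out each DOCA-salt mouse gave 21 to 59, while leaving out sham 1, or the block on the 4 sums, could not be fitted. Between members and lacking macrophages, 243 genes were higher and 319 lower, against 77 and 128 by DESeq2, 69 and 141 without the replicate block, 58 and 38 in cells of 2000 to 8000 UMIs (76 and 45 in DOCA-salt mice only) and 96 and 90 without cells with epithelial or dendritic cell UMIs (93 and 66 in DOCA-salt mice only). With no filter on low counts 578 were lower, and leaving out each mouse gave 101 to 308 higher and 163 to 392 lower, with 101 higher without DOCA-salt mouse 2 and likewise without mouse 3. For the Fcrls comparison the count of 0 became 3 by DESeq2, 1 with library sizes only, 106 with no filter, 30 in cells of 2000 to 8000 UMIs, 6 with at least 3 UMIs, 34 without cells with epithelial or dendritic cell UMIs and 0 to 312 when leaving out each mouse, and was 0 without the replicate block. For the difference of changes the count of 3 became 1 by DESeq2, 0 with library sizes only, 26 with no filter, 1 with at least 1 UMI and 14 to 66 when leaving out each DOCA-salt mouse. The mean share of members was 15.7% in sham and 60.7% in DOCA-salt mice with at least 1 UMI, 1.88% and 26.6% with at least 3, 0.540% and 6.07% after thinning, 0.0584% and 1.746% of all barcodes kept, and 3.10% to 6.23% and 34.2% to 40.9% when leaving out each mouse. Of the thinned shares, the DOCA-salt minus sham difference reversed without thinning for Nlrp3 (-1.36 percentage points) and Casp1 (7.06), and ranged over the mice left out from -5.07 to 7.50 for Nlrp3, -2.68 to 0.782 for Casp1 and -5.98 to 0.331 for Gsdmd.

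Single genes that reversed between treatments were S100a4 (-0.64 in cells of 2000 to 8000 UMIs) and Ccl5 and Tnf (0.81 and 0.62 with at least 3 UMIs). Between members and lacking macrophages, in cells of 2000 to 8000 UMIs of all mice and of DOCA-salt mice only, reversals were Lgals3 (-0.11 and -0.085), Mmp12 (-2.28 and -2.18, and -0.092 by DESeq2), Nr3c2 (0.20 and 0.14), Mgp (0.040 and 0.036), Casp1 (-0.022 and -0.11), Spp1 (0.024 and 0.055), P2ry6 (-0.071 and -0.073) and, in all mice, Il1a (-1.11). Of these, Mmp12 passed as lower in cells of 2000 to 8000 UMIs of all mice. Without cells with epithelial or dendritic cell UMIs, in all mice and in DOCA-salt mice only, Spp1 was at 0.48 and 0.50 and P2ry6 at -0.12 and -0.10. P2ry6 was also at -0.0025 with at most 20% mitochondrial UMIs, -0.084 with at least 3 UMIs and -0.025 without high Scrublet scores. Over the mice left out, Spp1 ranged from -1.06 to 0.045 (without DOCA-salt mouse 3), P2ry6 from -0.070 (without mouse 2) to 0.11, Casp1 from -0.12 (without mouse 3) to 0.25 and, in the Fcrls comparison, P2rx7 from -0.0017 (without mouse 2) to 0.55. Of 1118 alternative values of named genes between members and lacking macrophages, 981 kept direction and side of the threshold. The alternatives with all 6 mice and no minimum of cells, without cells with epithelial or dendritic cell UMIs and with 2 choices at once were chosen after seeing the data. Sham mice held 15 members in all, and 1 sham mouse reached the minimum of 5, so the comparison of treatments rests on 1 sham sum. In it, Ctsd passed with 4.27 but not with all 6 mice and no minimum of cells (1.58, and 1.82 with the replicate block).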
